A study of Mus musculus with 2 samples.

Results

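Matrix proteases of the MMP, ADAM and ADAMTS families and their TIMP inhibitors were read on Affymetrix MOE430A arrays of mouse cochlea dissected with its otic capsule, the cartilage shell that surrounds it. All genes whose symbol begins with *Mmp*, *Adam*, *Adamts* or *Timp* followed by a digit were taken, whatever their values. This gave 54 of the 12393 genes measured, read by 83 probe sets, with 18 *Mmp*, 25 *Adam*, 7 *Adamts* and 4 *Timp* genes. Where a gene had several probe sets, the one of the highest mean level stands for it unless another is named.

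Matrix metalloproteinases (MMPs) are zinc enzymes that cut collagens, gelatins and other matrix proteins, and most are secreted as inactive proenzymes. ADAM proteins sit in the membrane and release growth factors, cytokines and receptor domains from the cell surface, although several members have lost protease activity. ADAMTS proteins are secreted and cut proteoglycans such as aggrecan, procollagens or microfibril components. The TIMPs bind to the active site of these enzymes. In growing cartilage and bone the collagenase MMP13 and the gelatinase MMP9 are known for the removal of matrix at sites of mineralization and vascular invasion.

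By their labels, both arrays held RNA pooled from 8 cochleae of embryos at E18.5, without vestibular tissue, from matings of heterozygous C57BL/6J mice carrying a targeted disruption of *Igf1*, whose null embryos do not survive birth on this background. The genotype of each array is not settled: GEO's other labels call the array titled -/- wild type (*Igf1*+/+) and the array titled +/+ null (*Igf1*-/-). The titles therefore serve only as names, and every difference is the log2 level on the array titled -/- minus that on the array titled +/+, after subtraction of the median difference over all probe sets, 0.022. *Igf1* itself was at 11.03 on the array titled -/- against 11.42 on that titled +/+, and its 3 probe sets differed by -0.42, -0.75 and -0.58, which does not settle the labels, since where the probes lie relative to the disrupted part was not checked. Each title has 1 column of values. The study describes more than 1 RNA pool per genotype, and no source used here says whether a column is a single array or a summary, so "array" stands for a column. Either way no spread between replicates was at hand, and all differences are given without a test.

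The only repeat measurement came from genes read by more than 1 probe set. Within such genes the SD of the differences was 1.18 at levels below 5, 0.31 from 5 to 7, 0.13 from 7 to 9 and 0.085 above 9, so a difference is read here against its level. A mean level below 5 was found for 27 of the 54 genes, against 3429 of all 12393 genes measured. The dissected tissue carried markers of cartilage, with all 9 chondrocyte genes at mean levels of at least 9.15, and of the cochlea, with *Coch* at 9.20 on the array titled -/- against 9.58 on that titled +/+. Cochlear epithelium genes were lower on the array titled -/- in 7 of 9 cases, where 47.1% of all genes were lower. Only *Tectb* at -0.64 and *Tecta* at -0.52 lay below the central 90% of differences among genes of their level. The 7 other genes of the list lay inside it. The summed linear level was 2075 units on the array titled -/- against 2657 units on that titled +/+. *Tecta* and *Tectb*, the 2 genes of highest level in the list, weigh most in this sum. Markers of some other tissues were unequal as well. Skeletal muscle genes were higher on the array titled -/- in 9 of 9 cases, with differences of 0.11 to 1.05, and lung epithelium genes lower in 5 of 5, with a median of -3.49. Endothelial genes were higher in 5 of 5, with a median of 0.22, where 50.5% of all genes were higher. All 5 endothelial genes lay inside the central 90% of genes of their level. All 4 genes of otic mesenchyme were lower on the array titled -/-, with differences of -0.22 to -0.67. These 4 and all 5 lung epithelium genes lay below the central 90% of genes of their level. Of the 9 skeletal muscle genes, 8 lay above it. In such bulk RNA, fewer cells of a type and less RNA per cell cannot be told apart.

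The sequences that tie the *Mmp* genes of chromosome 9 together are shown before their values, since 9 of the 18 *Mmp* genes measured lie next to each other there. In RefSeq (GRCm38.p6) their order is *Mmp13*, *Mmp12*, *Mmp1b*, *Mmp3*, *Mmp1a*, *Mmp10*, *Mmp8*, *Mmp20* and *Mmp7*, with *Mmp27*, which was not measured, between *Mmp8* and *Mmp20*. AP-1, the dimer of Fos and Jun proteins, is a well-known activator of several of these genes. Its letters were searched for as TGANTCA, where N is any base, a pattern that reads alike on both strands. This is wider than the usual AP-1 site, which has G or C at N, and the match of *Mmp20* has A there. The letters TGANTCA were found within 250 bases before to 50 bases after an annotated start in 8 of the 9 genes, all but *Mmp8*. By comparison, 7.81% of 32851 RefSeq promoter windows of the same length, or 8.97% of 27025 genes, held them. Among the 21 other matrix protease and inhibitor genes with a promoter window, 3 held the letters (*Adam19*, *Adam1b* and *Adam25*), and none of the 4 other *Mmp* genes or the 4 *Timp* genes did. *Mmp12* and *Mmp7* each have a further annotated start whose window lacked them. The stretch around each match is given 5′ to 3′ on the gene's strand, with the matched letters in capitals:
*Mmp13*, chr9:7272468-7272496, plus strand: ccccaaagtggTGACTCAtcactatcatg
*Mmp12*, chr9:7347319-7347347, plus strand: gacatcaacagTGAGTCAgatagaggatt
*Mmp1b*, chr9:7388102-7388130, minus strand: gttacaaagccTGAGTCAtatagcctctg
*Mmp3*, chr9:7445765-7445793, plus strand: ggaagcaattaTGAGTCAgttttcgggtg
*Mmp1a*, chr9:7464057-7464085, plus strand: gttgtcaaccaTGAGTCAcatagcctctg
*Mmp10*, chr9:7502268-7502296, plus strand: tagcacccatgTGAGTCAtgcttagtgac
*Mmp20*, chr9:7628125-7628153, plus strand: catttgagacaTGAATCAtcacttacagg
*Mmp7*, chr9:7692016-7692044, plus strand: aagtgtgcaaaTGAGTCAcctatttccac

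The first base of the match lay between 35 bases (*Mmp13*) and 95 bases (*Mmp20*) before the annotated start. A match of letters describes the sequence and shows no binding, and a window without a match says only that these letters are not in it.

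**Figure D1:**
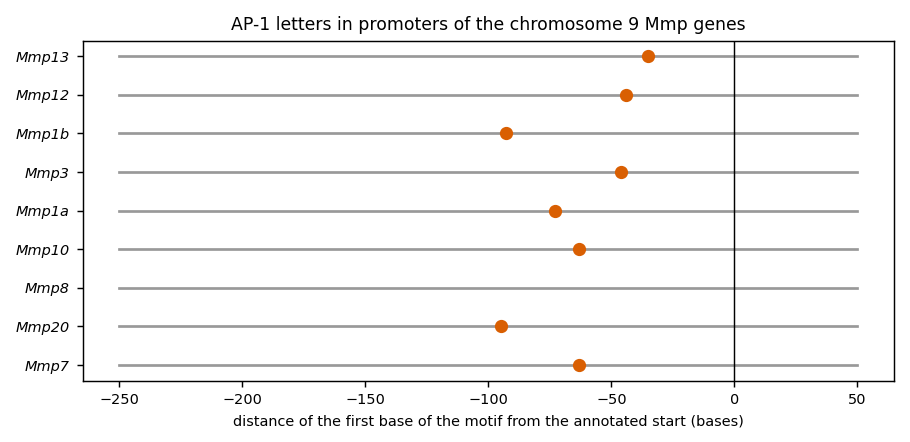
Position of the AP-1 letters (points) within the promoter window of each chromosome 9 *Mmp* gene, with the distance from the annotated start in bases on the horizontal axis and the genes in chromosomal order from top to bottom. The 8 matches lie 35 to 95 bases before the start, and the window of *Mmp8* has none.

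*Mmp13*, or collagenase 3, which cuts fibrillar type II collagen and is made by hypertrophic chondrocytes and osteoblasts, had the largest difference among the 20 matrix protease and inhibitor genes read above 7.10, the median over the whole table. Its level was 7.81 on the array titled -/- against 6.88 on that titled +/+, a log2 difference of 0.91 or 1.88-fold. Among all 4328 genes with a level of 7 to 9, the central 90% of differences lay between -0.28 and 0.32. *Mmp13* was read by 1 probe set, so no second probe set of it could be compared. Its difference was 0.93 without centring, 0.89 after quantile normalization and 0.90 after loess. Its promoter is the only window in the cluster, besides that of *Mmp1b*, that held the AP-1 letters together with those of RUNX factors, the regulators of cartilage and bone differentiation (TGTGGT, or ACCACA on the other strand). Both motifs together were found in 1.42% of all windows and the RUNX letters alone or with AP-1 in 16.8%. The 250 bases before the start of *Mmp13*, the gene with this difference, are printed with the RUNX letters (118 bases before the start) and then the AP-1 letters (35 bases before it) in capitals and no overlap between them (GRCm38.p6, chr9:7272264-7272513, plus strand):
*Mmp13*: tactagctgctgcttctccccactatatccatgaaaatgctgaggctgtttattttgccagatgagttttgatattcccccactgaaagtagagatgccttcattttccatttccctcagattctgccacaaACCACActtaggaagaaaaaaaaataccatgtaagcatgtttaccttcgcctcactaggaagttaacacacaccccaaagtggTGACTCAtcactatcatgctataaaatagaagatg

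The 8 other *Mmp* genes of the cluster were close to the low end of the arrays, with mean levels of 0.018 to 4.52. They went in both directions: 4 had a positive and 4 a negative difference and the median was -0.032. Over all genes measured, the share with a positive difference was 50.5% and that with a negative one 47.1%. *Mmp8*, the collagenase of neutrophil granules, was at 5.05 on the array titled -/- against 3.99 on that titled +/+, a difference of 1.04. The stromelysin *Mmp10* was at 2.49 and *Mmp3*, its close relative, at 1.30 on the array titled -/-, against 1.09 and 1.71 on that titled +/+, which are differences of 1.38 and -0.43. At levels below 5 the central 90% of all 3429 genes spanned -1.83 to 1.99, and all 8 lay within it. *Mmp7* (matrilysin) differed by 0.69 and *Mmp1a* and *Mmp1b*, the interstitial collagenases of mice, by -0.39 and -0.66, with *Mmp1b* listed at 0 on the array titled -/-. *Mmp20*, the enamel protease of teeth, was at 0.52 on the array titled -/- against 0.58 on that titled +/+. *Mmp12*, the elastase of macrophages, read 0.036 on the array titled -/-, against a listed 0 on that titled +/+, although 7 of 8 macrophage markers were above 5 on both arrays.

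*Mmp9*, or gelatinase B, is known from osteoclasts and neutrophils. By strongest probe sets, it was the other *Mmp* gene with a difference above the spread of genes of its level. It was at 8.63 on the array titled -/- against 8.10 on that titled +/+, a log2 difference of 0.50 or 1.42-fold. Its weaker probe set gave 7.55 on the array titled -/- against 7.14 on that titled +/+, a difference of 0.39, so both probe sets gave the same direction at levels above 7. *Mmp2*, or gelatinase A, the matrix protease of mesenchymal cells, did not share it. The level of *Mmp2* was 11.25 on the array titled -/- against 11.39 on that titled +/+, a difference of -0.16, and its other probe set differed by -0.089. Both lay within the central 90% of genes above a level of 9, which was -0.22 to 0.25.

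Genes of the cells that make MMP13, MMP9 and MMP8 were compared beside them. On the array titled -/-, 2 of 6 measured genes of hypertrophic chondrocytes and osteoblasts were higher and 4 lower. The 2 higher ones were *Ibsp*, the bone sialoprotein gene, at 10.36 on the array titled -/- against 9.43 on that titled +/+, and *Col10a1*, the collagen X gene of hypertrophic chondrocytes, at 8.56 on the array titled -/- against 7.75 on that titled +/+. Their differences of 0.91 and 0.80 were of the size of that of *Mmp13*, whereas the osteoblast gene *Sp7* differed by -0.30, *Phex* by -0.36, *Alpl* by -0.079 and *Dmp1* by -0.047. *Ibsp* and *Col10a1* lay above the central 90% of genes of their level, *Sp7* and *Phex* below it and the 2 others inside it. Summed over the list on the linear scale, the level was 2357 units on the array titled -/- against 1651 units on that titled +/+. The higher sum came from *Ibsp* and *Col10a1* alone, since the 4 other genes were each lower on the array titled -/-. It therefore does not show a rise of the list as a whole. The part of these cells in the *Mmp13* difference was not tested.

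Osteoclast genes were split, with 4 of the 7 measured higher and 3 lower. The osteoclast protease gene *Ctsk* was at 9.47 on the array titled -/- against 9.46 on that titled +/+, a difference of -0.018, and the acid phosphatase gene *Acp5* differed by -0.50. The 5 others had mean levels below 5, with *Oscar* at 1.20, *Calcr* at 1.08, *Tnfrsf11a* at 0.65 and *Itgb3* at 0.53 in difference, and *Ocstamp* at -0.70 and listed at 0 on the array titled -/-. All 7 lay inside the central 90% of genes of their level. The summed level of the list was 848 units on the array titled -/- against 849 units on that titled +/+. Of 9 granulocyte genes, 7 had a positive and 2 a negative difference, where 50.5% of all genes were higher and 47.1% lower. *S100a8* at 0.44, *S100a9* at 0.39 and *Lcn2* at 0.75 lay above the central 90% of genes of their level. *Ltf* at -0.89 and *Mpo* at -2.81, the only lower genes, lay below it and the 4 others inside it. The list therefore left this spread in both directions. Its summed level was 666 units on the array titled -/- against 524 units on that titled +/+. *Elane* was below 0.5 on both arrays. Whether granulocytes or osteoclasts had a part in the *Mmp9* and *Mmp8* differences was not tested.

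**Figure D2:**
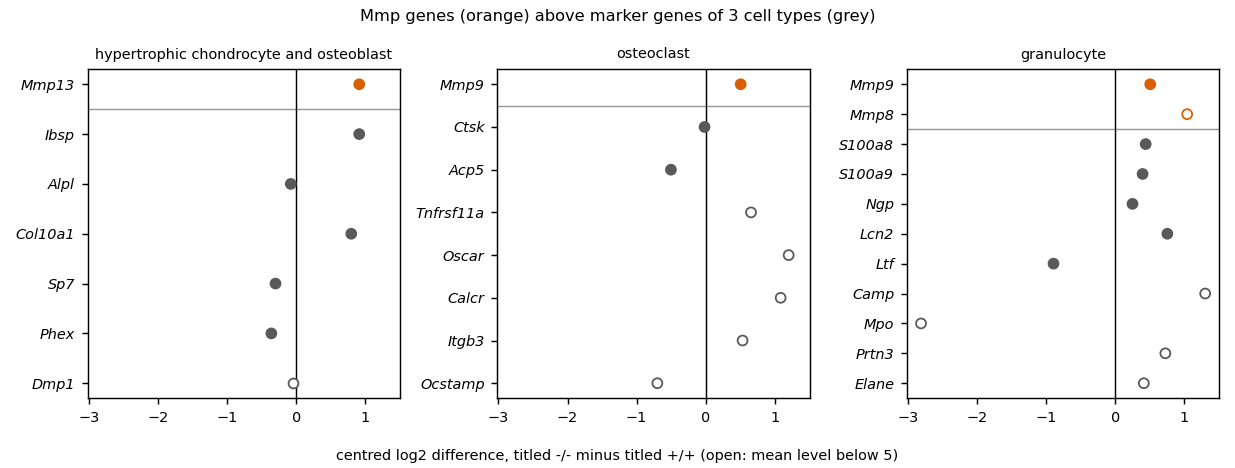
Centred log2 difference (array titled -/- minus array titled +/+) of *Mmp* genes (orange, above the line) and of marker genes (grey) of 3 cell types, with 1 point per gene and open points for mean levels below 5. Right of 0 lie 2 of 6 bone and hypertrophic cartilage genes (*Ibsp* and *Col10a1*), 4 of 7 osteoclast genes, all 4 of them open points, and 7 of 9 granulocyte genes.

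Membrane-type MMPs are anchored at the cell surface, and the protein of *Mmp14* (MT1-MMP) activates pro-MMP2 there together with TIMP2. *Mmp14* was at 10.70 on the array titled -/- against 10.87 on that titled +/+, a difference of -0.19, and its weaker probe set differed by -0.40. *Mmp16* (MT3-MMP) was at 8.17 on the array titled -/- against 8.39 on that titled +/+, with differences of -0.25 and -0.33 for its 2 probe sets. Both genes and *Mmp2* were therefore lower on the array titled -/- in all 6 of their probe sets, with differences of -0.089 to -0.40. The weaker probe sets of *Mmp14*, at a level of 9.43, and *Mmp16*, at 7.16, lay below the central 90% of genes of their level. The strongest probe sets of *Mmp14*, *Mmp16* and *Mmp2* lay inside it. *Mmp24* (MT5-MMP), found mainly in the nervous system, was higher instead, at 6.76 on the array titled -/- against 6.35 on that titled +/+. Its probe sets differed by 0.39 and 1.11, both at levels between 5 and 7, where the central 90% of 2566 genes spanned -0.52 to 0.70. Of 7 neuronal marker genes, 3 were higher and 4 lower there, with a range of -0.25 to 0.67. The 3 higher ones, *Gap43*, *Stmn2* and *Tubb3*, lay above the central 90% of genes of their level and the 4 lower ones inside it. The list summed to 5686 units on the array titled -/- against 5112 units on that titled +/+, and its part was not tested. *Mmp17* (MT4-MMP) was at 4.22 on the array titled -/- against 3.997 on that titled +/+.

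By their strongest probe sets, the remaining *Mmp* genes gave 1 further difference outside the spread of their level. *Mmp11*, stromelysin 3, which is made by mesenchymal cells during tissue remodelling, was at 7.41 on the array titled -/- against 7.76 on that titled +/+, a difference of -0.37. *Mmp23* differed by -0.15 at a level of 6.75 and by -0.33 for its weaker probe set. *Mmp19* was at 2.47 on the array titled -/- against 3.45 on that titled +/+, but its 2 probe sets differed in opposite directions, by -0.998 and 0.43. Over the 18 *Mmp* genes the median difference was -0.11, with 8 above and 10 below 0, while the median over all 12393 genes was 0.0028.

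**Figure D3:**
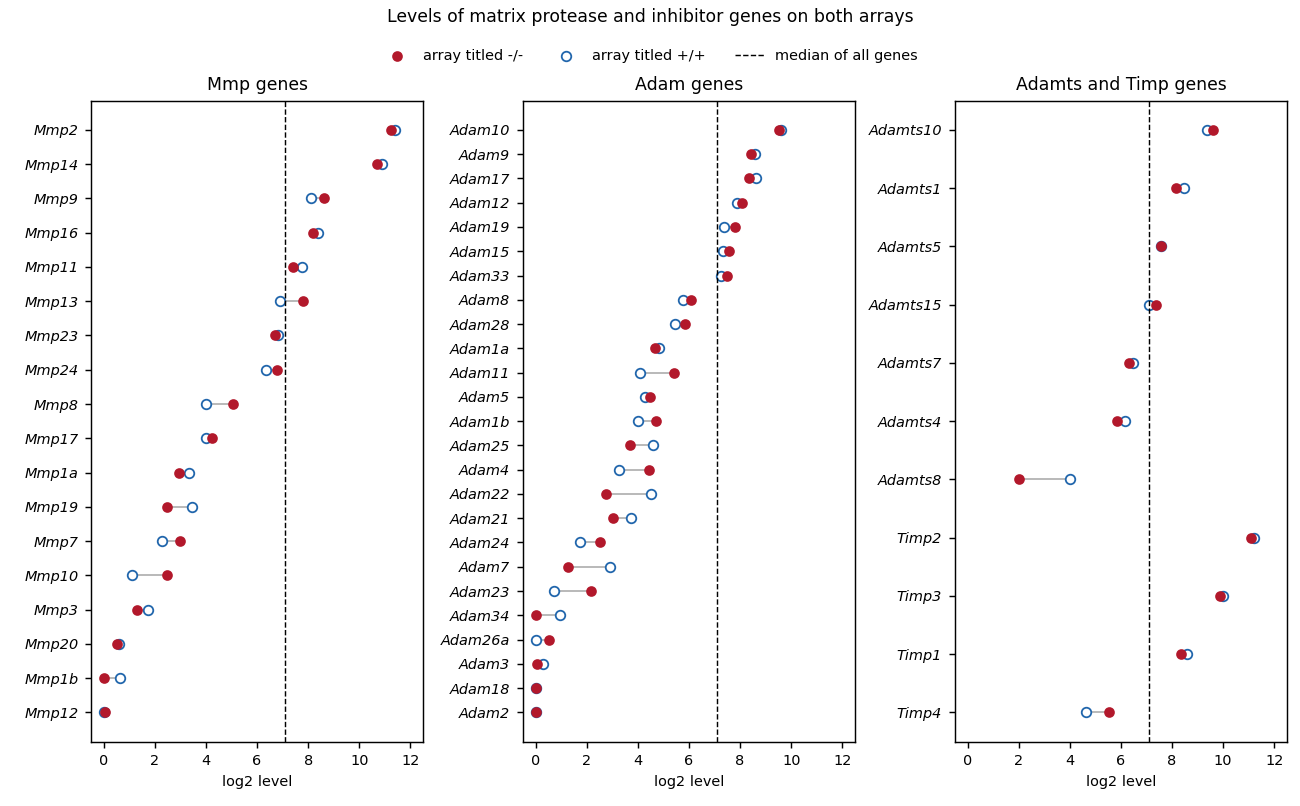
Log2 level of all 54 genes on the array titled -/- (filled red) and the array titled +/+ (open blue), 1 value per array, joined by a line. The dashed line is the median of all genes, 7.10, and *Mmp13*, at 7.81 on the array titled -/- against 6.88 on that titled +/+, crosses it. Levels of different genes come from different probes and are not compared with each other.

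The TIMP genes that were well measured were all slightly lower on the array titled -/- for their strongest probe sets. *Timp2*, which binds MT1-MMP and pro-MMP2 at the cell surface, was at 11.09 on the array titled -/- against 11.20 on that titled +/+, a difference of -0.14. Its 5 probe sets above a level of 5 differed by -0.14 to -0.41, all in this direction, and a probe set near 0 differed by 0.69. *Timp3*, the inhibitor held in the matrix, which also blocks ADAM17 and aggrecanases, was at 9.88 on the array titled -/- against 10.003 on that titled +/+, and its 4 probe sets differed by -0.043 to -0.17. *Timp1*, an inducible inhibitor with high affinity for MMP9, was at 8.36 on the array titled -/- against 8.58 on that titled +/+, a difference of -0.23. Each of these values from the strongest probe sets lay inside the central 90% of genes of its level. Weaker probe sets of *Timp2*, at levels of 10.25, 8.98 and 8.89, differed by -0.31, -0.41 and -0.30 and lay below it. *Timp4*, known from heart and muscle, was at 5.52 on the array titled -/- against 4.63 on that titled +/+, a difference of 0.87. That difference lay above the central 90% of genes of its level, but the other probe set of *Timp4*, which read 1.30 on the array titled -/- against 2.11 on that titled +/+, differed by -0.83.

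Among the ADAM genes, 9 encode proteases found outside the reproductive tract, and 7 of them were above 7.10. *Adam19* (meltrin beta), known from heart, nerve and muscle development, had the largest difference of these 7. It was at 7.79 on the array titled -/- against 7.37 on that titled +/+, a difference of 0.40, and its weaker probe set differed by 0.33. *Adam12* (meltrin alpha), expressed in developing muscle and bone, differed by 0.20 and 0.29 for its 2 probe sets and stood at 8.09 on the array titled -/- against 7.86 on that titled +/+. Of these, *Adam19* lay above the central 90% of genes of its level and *Adam12* within it. The muscle genes named above were higher on the same array, with a summed level of 26150 units on the array titled -/- against 16376 units on that titled +/+, and their part in these differences was not tested.

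The strongest probe sets of the main sheddases of the family, *Adam10*, *Adam9* and *Adam17*, were lower on the array titled -/-. Those of *Adam10* and *Adam9* lay inside the central 90% of genes of their level. *Adam10*, the protease that cuts Notch receptors and the amyloid precursor, was at 9.54 on the array titled -/- against 9.60 on that titled +/+, a difference of -0.083, and its weaker probe sets differed by -0.18 and, below a level of 5, -1.12. *Adam9* was at 8.41 on the array titled -/- against 8.57 on that titled +/+, a difference of -0.18. *Adam17*, the TNF-alpha converting enzyme, was at 8.33 on the array titled -/- against 8.62 on that titled +/+, a difference of -0.31 that lay just below the central 90% of genes of its level. The other 2 probe sets of *Adam17*, at levels above 6, differed by 0.16 and 0.21, and the mean over all 3 was 0.020, so its direction depends on the probe set.

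*Adam33*, an ADAM of mesenchymal cells, differed by 0.24, at 7.50 on the array titled -/- against 7.23 on that titled +/+. *Adam15* differed by 0.20 for its strongest probe set and by -0.13, -0.28 and -1.85 for the 3 others, so its direction is not settled either. *Adam8*, of leukocytes and osteoclasts, was at 6.08 on the array titled -/- against 5.78 on that titled +/+, a difference of 0.28. *Adam28*, first known from lymphocytes and epididymis, was at 5.86 on the array titled -/- against 5.44 on that titled +/+, a difference of 0.40, and its other probe set, with a mean level of 2.06, differed by 2.54. In all, 6 of the 9 proteases had a positive and 3 a negative difference, and the median was 0.20, where 50.5% of all genes were higher and 47.1% lower. Without *Adam15* and *Adam17* the split was 5 and 2, and without the _x_at and _s_at probe sets it was 5 and 4.

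ADAM11, ADAM22 and ADAM23 are neural adhesion proteins without protease activity, and ADAM22 and ADAM23 bind the secreted protein LGI1. Their genes were weakly read and went in different directions. *Adam11* was at 5.41 on the array titled -/- against 4.07 on that titled +/+, a difference of 1.32, and *Adam23* at 2.18 on the array titled -/- against 0.71 on that titled +/+, a difference of 1.45. *Adam22* was at 2.76 on the array titled -/- against 4.51 on that titled +/+, a difference of -1.77. Each had 1 probe set and lay within the central 90% of genes below a level of 5.

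The 13 ADAM genes of sperm and epididymis, many of which serve sperm maturation and fertilization, were all below a level of 5. *Adam2* and *Adam18* were listed at 0 on both arrays, and *Adam34* and *Adam26a* on 1 array each. *Adam1a* was at 4.69 on the array titled -/- against 4.83 on that titled +/+. The 4 sperm marker genes were likewise at 3.91 or less on both arrays, and *Prm1* was listed at 0 on the array titled +/+. The differences of these 13 genes spread from -1.69 (*Adam7*) to 1.16 (*Adam4*), with 5 higher, 6 lower and a median of -0.022. *Adam1b* was at 4.71 on the array titled -/- against 3.99 on that titled +/+, and its 2 probe sets differed by 0.70 and -0.89. *Adam24* and *Adam5* differed by 0.75 and 0.17, *Adam25* and *Adam21* by -0.89 and -0.72, and *Adam3*, at 0.27 or below on both arrays, by -0.25.

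Of the 7 ADAMTS genes, 5 encode proteoglycanases that cut aggrecan or versican. *Adamts1* was at 8.17 on the array titled -/- against 8.45 on that titled +/+, a difference of -0.30, below the central 90% of genes of its level. *Adamts4* (aggrecanase 1) was at 5.87 on the array titled -/- against 6.17 on that titled +/+, with differences of -0.33 and -0.11 for its 2 probe sets. *Adamts5* (aggrecanase 2), the main aggrecanase of mouse joint cartilage, did not follow, at 7.57 on the array titled -/- against 7.55 on that titled +/+. Its 2 probe sets differed by -0.0081 and -0.023. *Adamts15* was at 7.37 on the array titled -/- against 7.11 on that titled +/+, a difference of 0.24.

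*Adamts8*, which is expressed in lung, had the largest difference of all 54 genes, -2.03, at 1.9995 on the array titled -/- against 4.003 on that titled +/+. This was outside the central 90% of genes below a level of 5, although probe sets of the same gene varied there with an SD of 1.18. The 5 lung epithelium genes were lower on the same array, with a summed level of 294 units on the array titled -/- against 2352 units on that titled +/+ and differences of -0.76 (*Sftpd*) to -5.32 (*Scgb1a1*), and their part was not tested. The other 2 ADAMTS genes were *Adamts10*, needed for fibrillin microfibrils, and *Adamts7*, known to cut COMP. *Adamts10* was at 9.62 on the array titled -/- against 9.39 on that titled +/+, a difference of 0.21, and *Adamts7* was at 6.33 on the array titled -/- against 6.46 on that titled +/+, a difference of -0.16.

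**Figure D4:**
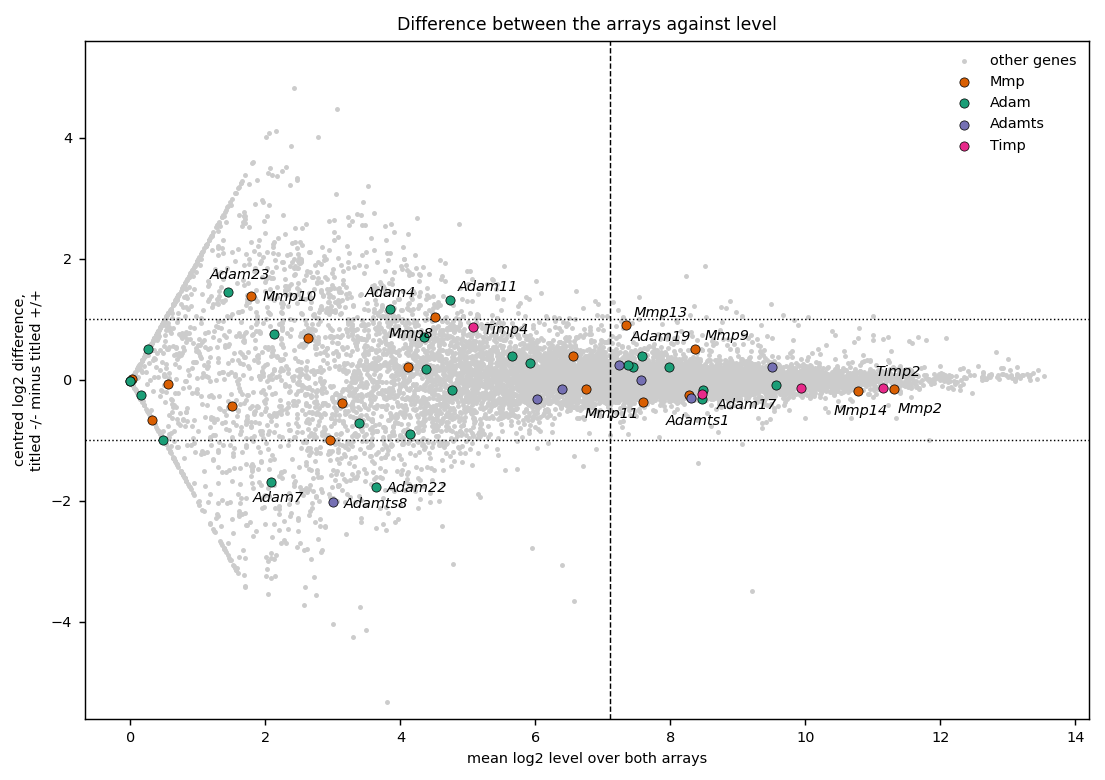
Centred log2 difference (array titled -/- minus array titled +/+) plotted over the average log2 level of each gene, with 1 point per gene, other genes in grey and the 4 families in colour. The dotted lines mark 1 and -1 and the dashed line the median level, 7.10, and *Mmp13* at 0.91 and *Mmp9* at 0.50 lie above the band of genes of like level.

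Counted over the whole set, 24 of the 54 genes were higher on the array titled -/- and 28 were lower there, with 2 at 0 on both arrays, which is 44.4% and 51.9%. These shares stand beside the 50.5% and 47.1% over all genes. By the size limit of 1 log2 unit, 5 were higher (*Adam23*, *Mmp10*, *Adam11*, *Adam4* and *Mmp8*) and 3 lower (*Adamts8*, *Adam22* and *Adam7*), against 5.54% higher and 4.07% lower among all genes. The mean level of all 8 was under 5, and only *Adamts8* lay outside the spread of its level.

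Among the 20 genes above the median level, 8 were higher on the array titled -/- and 12 were lower there, against 49.1% and 50.9% of all 6196 genes above that level. A difference above 0.3 was found for 3 of the 20, *Mmp13*, *Mmp9* and *Adam19*, against 4.91% of all genes above the median level, and a difference below -0.3 for 3, *Mmp11*, *Adam17* and *Adamts1*, against 3.23%. Without centring, *Mmp11* was the only 1 of these 3 still below -0.3. The same 6 genes made up the 6 of 14 with a level of 7 to 9 that lay outside the central 90% of genes, a range that leaves out 10% of all genes of that level by its definition. The family medians over the genes above the median level were -0.18 for 6 *Mmp*, 0.20 for 7 *Adam*, 0.10 for 4 *Adamts* and -0.15 for 3 *Timp* genes, against -0.0034 for all genes above that level.

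**Figure D5:**
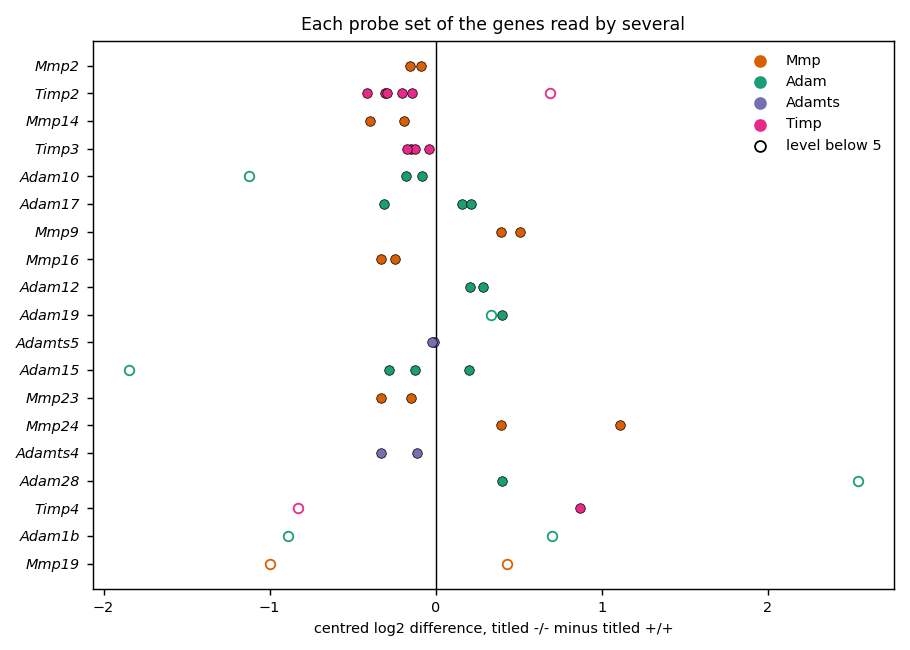
Centred log2 difference (array titled -/- minus array titled +/+) of every probe set of the 19 genes read by several, 1 point per probe set, with open points for mean levels below 5 and genes ordered by their strongest probe set. Both *Mmp9* points lie right of 0 and those of *Mmp2*, *Mmp14*, *Mmp16* and *Timp3* left of it, while *Adam17* and *Adam15* have points on both sides.

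For 19 of the 54 genes the directions of several probe sets could be compared. Probe sets of a gene read the same RNA, so this compares probes and not replicates. Of these 19 genes, 13 had all their probe sets on the same side of 0 and 6 had them on both sides. The same count was not made over all genes, so no share stands beside it. When probe sets with a mean level of 5 or less were set aside, 14 genes still had several, and 12 of these were on 1 side. The 2 exceptions were *Adam15* and *Adam17*.

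Proteins that act around these families were read from a separate list. Of 8 activators and inducers, 7 were lower on the array titled -/-, all but the plasminogen gene *Plg*, where 47.1% of all genes were lower. The median difference was -0.14. Among the 7, *Plaur* was lower only through the centring, at 6.2465 on the array titled -/- against 6.2375 on that titled +/+. All 8 differences lay inside the central 90% of genes of their level. *Furin*, the proprotein convertase that activates membrane-type MMPs and ADAMs, was at 8.06 on the array titled -/- against 8.26 on that titled +/+, a difference of -0.22, and *Bsg*, which encodes the MMP inducer EMMPRIN, was at 11.20 on the array titled -/- against 11.35 on that titled +/+, a difference of -0.17. Of 9 further inhibitors and inhibitor-like genes measured, 3 were higher and 5 lower, and *Papln* was listed at 0 on both arrays. *Reck*, a membrane inhibitor of MMP14, MMP2 and MMP9, was at 9.85 on the array titled -/- against 10.02 on that titled +/+, a difference of -0.19.

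Other matrix proteases were lower in 8 of 11 genes and higher in 2 (*Ctss* and *Mep1a*), where 47.1% of all genes were lower. *Mep1b* was at 0 on both arrays and the median was -0.11. Among the 8, *Ctsk* and *Ctsb* were lower only through the centring. *Ctsk* read 9.47 on the array titled -/- against 9.46 on that titled +/+, and *Ctsb* 11.28 against 11.27. The serine protease gene *Htra1* was at 9.96 on the array titled -/- against 10.19 on that titled +/+, a difference of -0.25, and *Fap*, of fibroblasts, differed by -0.24, both below the central 90% of genes of their level. Substrate genes were higher in 9 of 11 cases and lower in 2, with a median of 0.065, where 50.5% of all genes were higher. Outside the central 90% of genes of their level were 2 of the 11, *Col10a1*, named above, at 0.80 and the neurocan gene *Ncan* at 0.77. *Acan*, the gene of aggrecan, was at 11.50 on the array titled -/- against 11.28 on that titled +/+, a difference of 0.20, and *Col2a1*, of type II collagen, differed by 0.015. Apart from *Mep1a* at 1.15 and *Tll2* at -1.63, both of low level, no gene of these 4 lists was past the size limit of 1.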

How the data were processed

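Biotin-labelled cRNA was hybridized to MOE430A arrays. The authors deposited log2 values per probe set (0 to 13.64 over the probe sets used, a range from which the base was read). Their methods name MAS5.0, RMA and multi-mgMOS from PUMA; the one behind the deposited table, and the scaling between arrays, are not stated in any source used here, and levels can shift with that choice, most at the low end.

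Of 22690 probe sets, 64 controls were left out. The platform annotation gave 1 gene symbol to 20380 probe sets, several to 691 and none to 1555. A probe set shared by *Adam1a* and *Mapkapk5* was not used. All 54 genes matched the RefSeq gene table of GRCm38.p6 by identifier, and 30 of them had promoter windows of 300 bases there. The median of the differences was subtracted. No test was possible with 1 column of values per title, which may be a single array or a summary over several, and the small number of columns limits precision. Genes and lists were chosen with earlier results of these data known.

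The naming rule took the 6 *Mmp*, *Adam* and *Adamts* genes of the highest level in each family, all *Timp* genes, genes past 1 in size, and genes past 0.3 above the median level. The others, the level ranges and the central 90% were added after values were seen. Summed levels add 2 to the power of each log2 level. The steps were tested on simulated data with Python 3.11.15 (numpy 2.4.6, pandas 2.3.3, statsmodels 0.14.6) and figures were drawn with matplotlib 3.10.9.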

Additional observations from a re-analysis of the deposited data

How the results depend on the processing

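No paired analysis was possible because each title has 1 column of values. The 6 alternatives left out the centring, normalized by quantiles, removed a loess trend over the level (span 0.3), raised low values to the 25th percentile, averaged probe sets, or dropped those with names in _x_at or _s_at. Of 180 differences of 30 named genes under them, 169 moved by less than the SD between probe sets at their level. Many of these had little room to move, so the count is no measure of robustness. Averaging leaves a gene with 1 probe set unchanged, and leaving out the centring shifts every gene by only 0.022. Below a level of 5 the SD is itself 1.18. A further 10 differences moved by more than the SD, and that of *Adam17* changed sign, to 0.020 with probe sets averaged. *Adam15* (lowest value -0.51), *Adam1b*, *Adamts5* and *Mmp12*, none of them past either size limit, also changed sign under at least 1 alternative. The *Adam* median of 0.17 became 0 with low values raised and -0.022 with probe sets averaged or without the _x_at and _s_at probe sets. The *Adamts* median of -0.16 became 0 with low values raised and 0.10 for genes above the median level. The 5 genes higher by over 1 became 1 with low values raised, 12 at a limit of 0.5 and 0 at a limit of 2. The 3 genes lower by over 1 became 5 with quantile normalization or loess, 0 with low values raised, 8 at 0.5 and 1 at 2. Above the median level, the 3 genes higher by over 0.3 became 8 at 0.2. The 3 genes lower by over 0.3 became 1 without centring or with low values raised, 5 at 0.2 and 0 at 0.5. The cause was not tested where the limit itself was not changed. The count of 6 of 14 genes outside the central 90% stayed at 6 or 5 under these alternatives, which were added for it after the data were seen. Below a level of 5, the SD between probe sets of a gene, 1.18, exceeds most differences reported.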
